A study of Mus musculus with 2 samples.

Results

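Neuromodulator receptor genes encode the receptors through which serotonin, dopamine, noradrenaline, acetylcholine, opioid peptides and cannabinoids act on neurons. The members were chosen by gene symbol alone, as the protein-coding genes named Htr, Drd, Adra, Adrb, Chrm, Chrn, Opr and Cnr with the subtype letters and numbers of these families, and no measured value was used. This gave 55 genes of the 21755 protein-coding genes on the autosomes and the X chromosome. They comprise 14 serotonin, 5 dopamine, 9 adrenergic, 5 muscarinic, 16 nicotinic, 4 opioid and 2 cannabinoid receptor genes. Open chromatin was mapped by DNase-seq, which sequences the ends left where DNase I has cut DNA that is not packed away. The tissue was frontal cortex of 10 day old female B6CASTF1/J mice, a B6 by CAST F1 hybrid, and the series holds 2 libraries, named biological replicates 1 and 2 of 1 group. Both libraries cite the same donor record and the mark "3x", which no source used here explains. Nothing states that the libraries came from separate animals, so the spread between them may be technical. No treatment, genotype or age was compared, and the results below are counts, levels and ranks with no test.

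Most of these receptors are G protein-coupled. Gs-coupled receptors raise cyclic AMP, Gi-coupled receptors lower it and open potassium channels, and Gq-coupled receptors activate phospholipase C. The nicotinic subunits and Htr3a and Htr3b instead form ligand-gated cation channels. In the frontal cortex the receptors are spread over pyramidal cells, interneurons, glia and the terminals of incoming fibres, and many are made by only some of these cells. In bulk tissue, fewer cells with an open site and weaker opening in every cell cannot be told apart.

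Replicate 1 held 104654 peaks over 22.5 Mb and 293484 footprints, and replicate 2 held 81654 peaks over 17.4 Mb and 187137 footprints. A footprint is a short stretch inside open DNA that is protected from cutting. The lists give no read counts, so depth is unknown, and the signal of a peak is the authors' own value, whose scaling is not stated. Pairs of values are those of replicate 1 and replicate 2, in that order. Of markers of the labelled tissue, 9 of 10 cortical and pan-neuronal genes and 5 of 6 inhibitory neuron genes had an open promoter in both libraries, and Lhx6 was open in neither. Markers of other cell types were open in part, with 3 of 5 astrocyte, 3 of 5 oligodendrocyte lineage, 2 of 4 microglial and 1 of 4 endothelial markers open in both. All 4 striatal and 3 of 6 midbrain and hindbrain markers were open in both, as against 0 of 4 skeletal muscle markers. Over all protein-coding genes 63.3% of promoters were open in both libraries, and several of these counts lay near that share. With so few markers per list, the counts do not show which cell types were present.

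A promoter counted as open when a peak reached into the window of 500 bp on either side of an annotated start, and its promoter signal was that of the highest such peak. In replicate 1, 41 receptor genes had an open promoter, where 66.6% of all protein-coding genes did. In replicate 2, 38 did, where the share over all genes was 63.8%. The promoters of 38 receptor genes (69.1%) were open in both libraries, against 63.3% of all genes, so the share of receptors was close to that of genes at large. With the shorter, stricter peak list of each library the order turned round, with 29 receptors (52.7%) against 58.8% of all genes, and likewise with a window of 100 bp, with 30 (54.5%) against 59.6%. Another 3, Htr1d, Drd5 and Adrb3, were open in replicate 1 only, and 14 had no promoter peak in either library and are called closed.

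The signal of the open receptor promoters was low. Its median was 0.719 in replicate 1 and 0.902 in replicate 2 for receptor genes, against 3.13 and 3.73 for all open promoters, a ratio of 0.230 and 0.242. Below the lower quartile of all open promoters, 1.42 and 1.83, lay 29 of the 41 and 27 of the 38. Only the Chrnb1 promoter in replicate 1 lay above the median of all open promoters. The receptors that were open therefore ranked in the median at percentile 11.3 of all open promoters in replicate 1 and 9.83 in replicate 2.

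**Figure D1:**
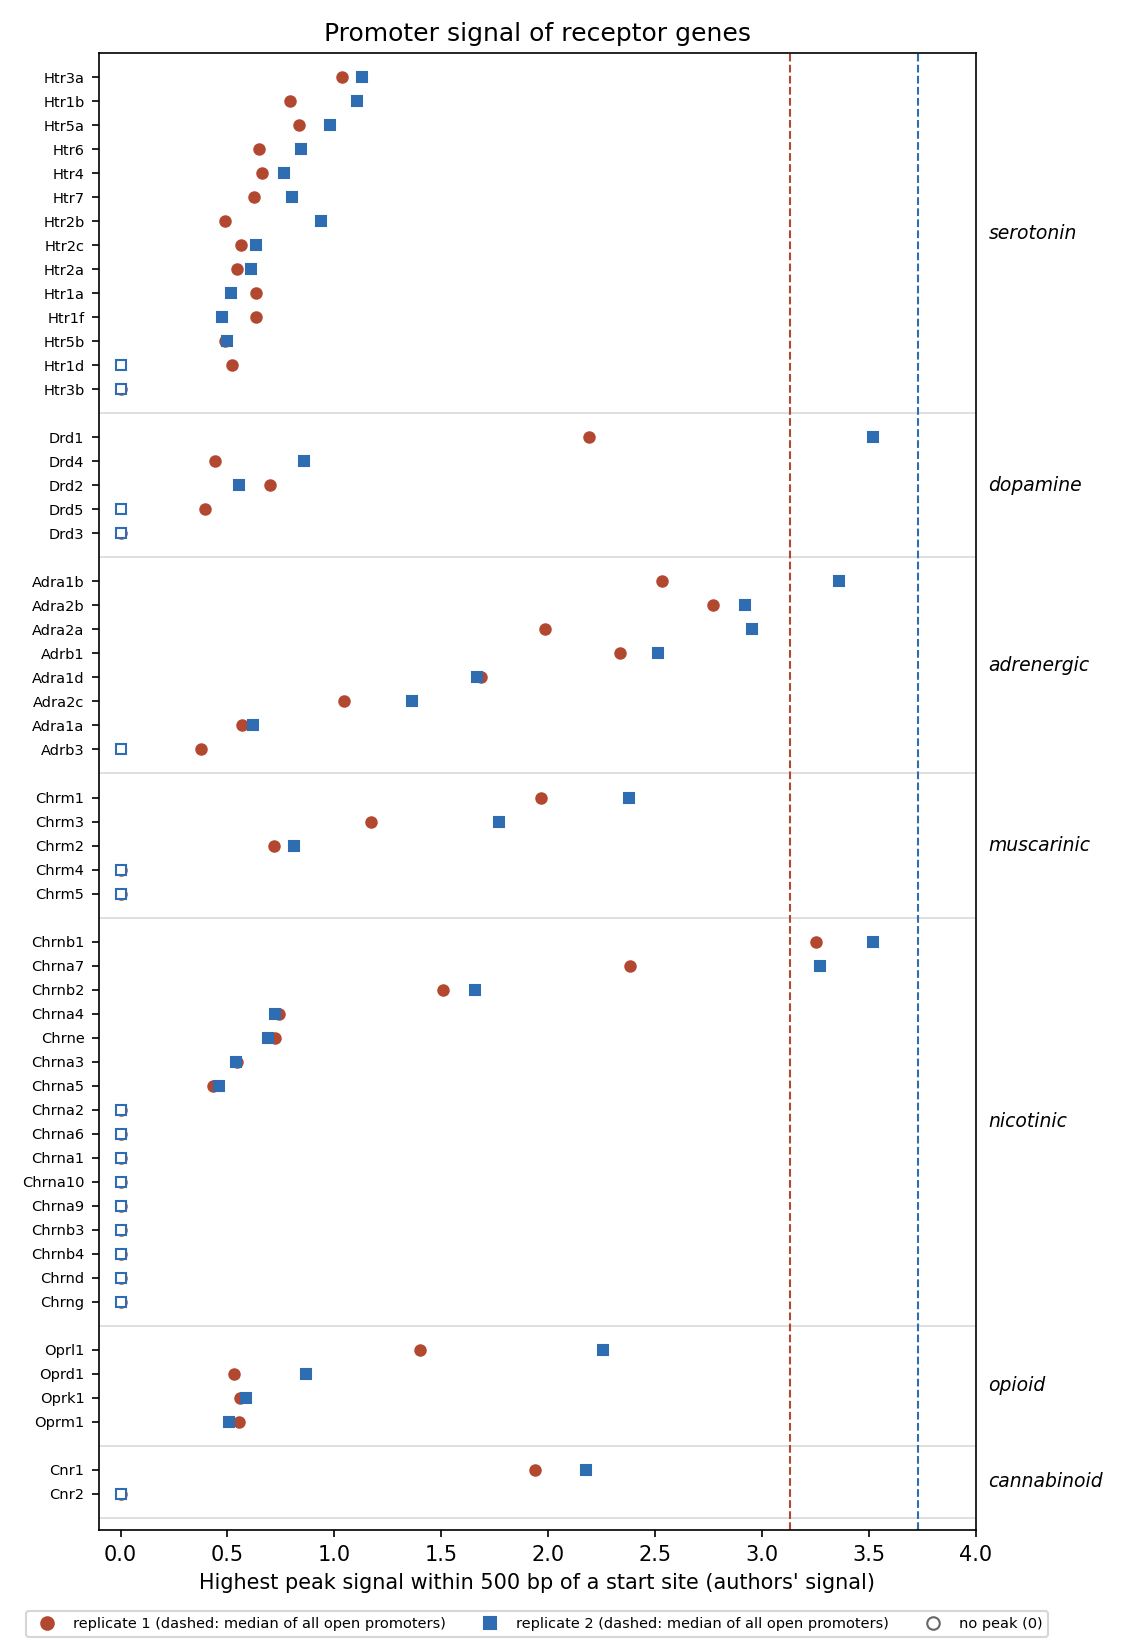
Highest peak signal within 500 bp of a start site (authors' signal, horizontal axis) for the receptor genes described, grouped by class and ordered by mean signal, with circles for replicate 1, squares for replicate 2, open symbols at 0 for no peak and dashed lines at the median of all open promoters (3.13 and 3.73). Adrenergic promoters spread up to 3.36, serotonin promoters stay at or below 1.13, and 9 of the 16 nicotinic genes have no peak in either library.

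**Figure D2:**
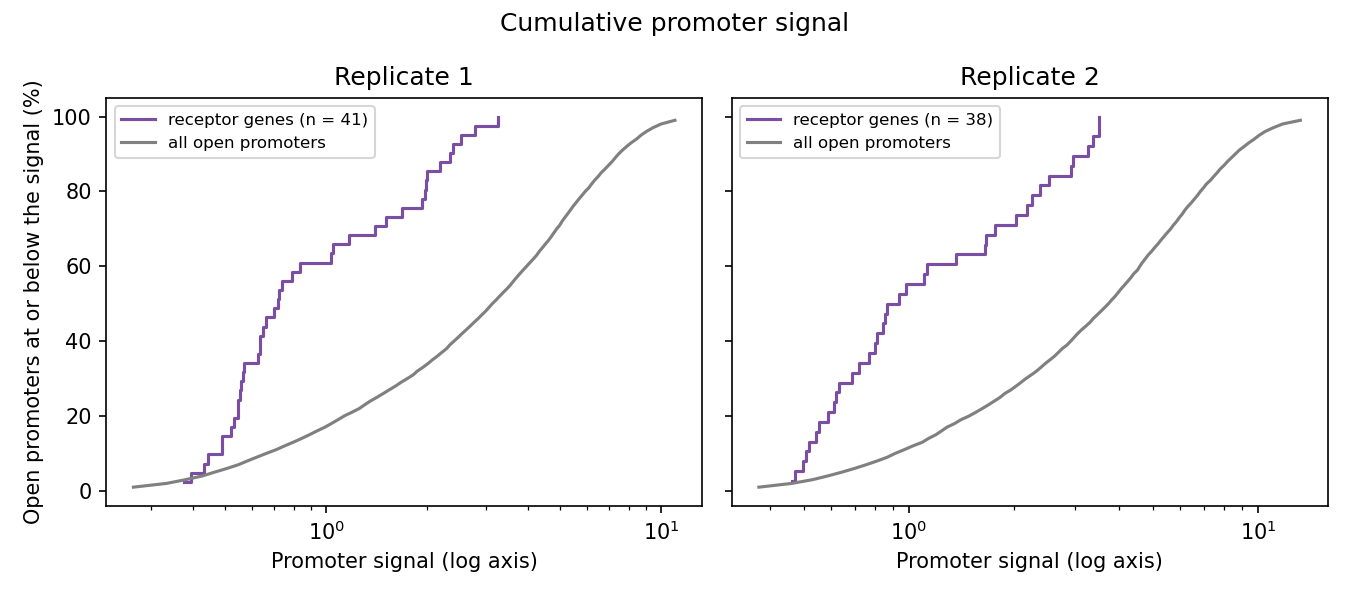
Cumulative share of open promoters (vertical axis, %) at or below a given promoter signal (horizontal log axis) for receptor genes (purple) and all protein-coding genes (grey), by replicate. The receptor curve lies to the left over nearly its whole range, with medians of 0.719 and 0.902 against 3.13 and 3.73.

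Serotonin receptor promoters were mostly open but weak: 12 of 14 were open in both libraries, with a median signal of 0.635 and 0.784. Htr3a, the obligatory subunit of the serotonin-gated channel and a marker of a class of cortical interneurons, was the highest at 1.04 and 1.13. Htr1b, a Gi-coupled receptor of axon terminals, had 0.792 and 1.11, close to Htr5a at 0.833 and 0.981. Among the 12 open in both libraries, the lowest mean was that of Htr5b at 0.490 and 0.496, a gene whose human counterpart is a pseudogene. The class was narrow, and its 12 open promoters lay between 0.474 and 1.13 over both libraries. Also open were the Gi-coupled Htr1a and Htr1f, the Gq-coupled Htr2a, Htr2b and Htr2c, and the Gs-coupled Htr4, Htr6 and Htr7. Htr2a, the target of classical psychedelics, had 0.547 and 0.609, towards the low end of this range.

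The 2 exceptions were Htr1d and Htr3b. Htr1d, a Gi-coupled terminal receptor, had 0.521 in replicate 1 and no peak in replicate 2. That peak was at a processed-transcript start 1.09 kb inside the gene and not at the cluster of 3 coding starts. Htr3b, the partner subunit of Htr3a, had no promoter peak in either library, so the 2 neighbouring channel subunit genes on chromosome 9 differed in promoter state.

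Several serotonin receptor loci held distal sites, meaning peaks centred over 1000 bp from every annotated start site, that were stronger than the promoter. Htr2a carried an intronic site 2.70 kb from its start at chr14:74643461-74643620 with a signal of 2.46 and 3.64. Htr6, a Gs-coupled receptor found almost only in brain, had a site at -10.7 kb (negative values are upstream) with 2.97 and 3.17. Htr1b had a site 6.72 kb from its start, beyond the gene's end, with 2.18 and 3.53. In each of these 3 loci the distal site exceeded the promoter in both libraries, the Htr6 promoter having 0.646 and 0.846. The nearest annotated start to the Htr6 site, 5.86 kb away, and to the Htr1b site, 4.44 kb away, belonged to another gene. Both sites held a match to the consensus of CTCF under a footprint in both libraries. The link of these sites to any gene was not tested.

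Dopamine receptors split into 1 promoter that was strong among the receptors and 4 weak or closed ones. The strong one, that of Drd1, lay at percentile 36.7 and 47.6 of all open promoters. Drd1, the Gs-coupled receptor of prefrontal and striatal dopamine signalling, had 2.19 and 3.52, and its gene lies at chr13:54051183-54055705. Drd4, a Gi-coupled receptor of the prefrontal cortex, had 0.443 and 0.857. Drd2, the Gi-coupled target of antipsychotic drugs, was next to it at 0.698 and 0.553. Both thus lay within the weakest part of all open promoters, at percentile 10.8 or lower. Drd5, the other Gs-coupled member, had 0.396 in replicate 1 and no peak in replicate 2, and Drd3 had none in either.

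Motifs at promoters were searched only in the highest peak of each open promoter, here and below. Of the receptors, only Drd1 held a match to the CTCF consensus in that peak. CTCF is the zinc finger protein that anchors chromatin loops, and the match lay under a footprint in both libraries. Over all open promoters 2.79% and 2.84% held such a match. The peak is shown for this match, which is in capitals. It is given 5′ to 3′ on the strand of the gene (minus) at chr13:54055676-54055840 of mm10, with the part beyond the first transcribed bases left out.
Drd1: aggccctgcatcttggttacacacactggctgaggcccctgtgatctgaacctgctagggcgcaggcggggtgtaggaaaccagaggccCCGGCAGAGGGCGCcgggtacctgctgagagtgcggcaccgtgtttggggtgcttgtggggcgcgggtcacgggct

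Drd5 had the strongest distal site of all receptor loci. At -11.4 kb, at chr5:38307841-38308040, its signal was 3.21 in replicate 1 and 5.58 in replicate 2, each the highest distal value of the 55 loci in that library. A second peak, at -10.2 kb, had 0.802 and 1.13. The Drd1 locus, by contrast, held no distal site within 20 kb in either library.

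Adrenergic receptors had the highest median promoter signal of the 7 classes, 1.98 and 2.27, with 8 of 9 open in both libraries. This rank is that of the 500 bp window and was not repeated with a narrower one, and most of these peaks were centred off a start. Adra1b, a Gq-coupled receptor, had 2.53 and 3.36. Adra2b, a Gi-coupled receptor, had 2.77 and 2.92, and both lay near the middle of all open promoters. Adrb1, the Gs-coupled beta receptor best known from heart and also found in cortex, had 2.34 and 2.51, and Adra2a, the Gi-coupled receptor through which noradrenergic neurons limit their own release, had 1.98 and 2.95. Adra1d stood at 1.69 and 1.67 and Adra2c at 1.05 and 1.36. Adra1a, which shares Gq coupling with Adra1b, was the lowest of those open in both at 0.568 and 0.620. The signals of the Gq-coupled members thus ran from 0.568 to 3.36 over both libraries.

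Adrb3, the beta receptor of fat tissue, had 0.375 in replicate 1 and no peak in replicate 2, although 109 bases near its starts were listed there in the cut-rate table. That peak lay at the last of 4 separate start clusters, 22.0 kb into the gene, near the start of the antisense transcript Gm45470. The Adra2b peak was centred at -588 bp from a start site, and with a window of 100 bp its mean signal was 0.352 instead. Other peaks centred off a start were those of Adra1d (-547 bp in both libraries), Adra2a (439 bp in both) and Adra2c (571 and 581 bp). The same held for Adrb1 (-309 and -509 bp) and Adra1b (-218 bp in both), whereas the Adra1a peak was at 22 and -24 bp.

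The Adra1b peak was not at the first annotated start. The gene (chr11:43774606-43901210) has a coding start at its outer end, which had no peak, and another 64.9 kb downstream, which was open with the values given above. When only the outer gene start counted, Adra1b had no promoter signal. The open peak is shown because it is the strongest adrenergic promoter of replicate 2, at chr11:43836441-43836660 of mm10 on the minus strand, with the bases under a footprint in both libraries in capitals.
Adra1b: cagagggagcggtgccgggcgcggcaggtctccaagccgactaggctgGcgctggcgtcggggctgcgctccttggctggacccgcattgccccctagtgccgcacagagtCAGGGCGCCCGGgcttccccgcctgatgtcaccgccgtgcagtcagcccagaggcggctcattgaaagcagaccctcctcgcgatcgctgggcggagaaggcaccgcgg

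Muscarinic receptors divided into 3 open and 2 closed promoters. Chrm1, the Gq-coupled receptor that dominates in forebrain pyramidal cells, had 1.97 and 2.38. Chrm3, also Gq-coupled, had 1.17 and 1.77. Chrm2, a Gi-coupled receptor of cholinergic terminals and interneurons, was lowest at 0.719 and 0.812, and its peak was also within 500 bp of the start of the noncoding gene 9330158H04Rik. Chrm4, the Gi-coupled receptor best known from striatum, and Chrm5, known from midbrain dopamine neurons, had no promoter peak in either library. The 3 open and 2 closed promoters did not follow coupling, since both Gi- and Gq-coupled members were in each set.

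The Chrm1 peak lay inside the first, untranslated exon, and the stretch shown is its longest run under a footprint in both libraries, in capitals, at chr19:8664278-8664307 of mm10 on the plus strand.
Chrm1: TCCCCCCCAAGGCTGGCGTGCCAGGGGGTg

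The loci of the 2 closed muscarinic genes differed. The Chrm5 locus had no distal peak in replicate 1 and 2 in replicate 2, of 0.767 and 0.643. Around Chrm4, a site at -5.13 kb had 2.68 in replicate 1 and 3.89 in replicate 2, and a second at -3.03 kb had 1.72 and 2.12. The first of these lay 1.19 kb from the start of a neighbouring gene in replicate 1, and its link to either gene was not tested. Chrm3, the longest member at 485 kb, had 9 and 8 distal peaks, the most of all receptors over both libraries.

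Nicotinic subunits had the largest number of closed promoters. Only 7 of 16 were open in both libraries, and the 9 others had no peak in either. Among the 9 neuronal subunits 5 were open. Chrna7, which forms homomeric calcium-permeable channels in cortex and hippocampus, had 2.39 and 3.27. Chrnb2 had 1.51 and 1.66, and Chrna4, with which it forms the main high-affinity nicotine binding receptor of brain, had 0.740 and 0.722. Chrna3 had 0.547 and 0.541, and Chrna5, an accessory subunit known from deep layer cortical neurons, was lowest at 0.432 and 0.462. The open set thus held the subunits of the 2 main cortical receptors. Chrna2, Chrnb4, Chrna6 and Chrnb3 were closed, of which Chrna6 and Chrnb3 are known from midbrain dopamine neurons.

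The muscle subunits gave the strongest receptor promoter in the mean of both libraries. Chrnb1, which encodes their beta subunit, had 3.26 and 3.52, at percentile 51.6 of all open promoters in replicate 1 and 47.6 in replicate 2. Its peak lay 435 bp and 425 bp downstream of a start, and no peak lay within 100 bp of a start. Chrne, the subunit of adult muscle, had 0.724 and 0.688, but only at a retained-intron start 3.52 kb inside the gene that adjoins a coding start of 4930544D05Rik. The other 3, Chrna1, Chrnd and the fetal Chrng, had no promoter peak, and the hair cell subunits Chrna9 and Chrna10 had none. Of genes that mark skeletal muscle, Acta1, Ckm and Myog were also closed and Myod1 was open in 1 library.

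The next 3 sequences were chosen because they hold a searched motif under a footprint in both libraries. Of the receptor promoter peaks searched, only that of Chrnb2 held a match to the consensus of REST, a repressor of neuronal genes. The match lay at chr3:89764458-89764473 in the untranslated part of the first exon. Such a match was found in 17 of 14496 open promoters in replicate 1 and 13 of 13889 in replicate 2, or 0.117% and 0.0936%. Chrna7 and Chrnb1 held footprinted GC boxes, GGGCGG, the letters bound by Sp factors, and 2 of the 3 in Chrnb1 overlap each other. The matches are in capitals, and all 3 genes are on the minus strand of mm10, at chr3:89764451-89764480, chr7:63212540-63212700 and chr11:69795341-69795600.
Chrnb2: cgcggctTCAGCACCACGGACAGcgctccg
Chrna7: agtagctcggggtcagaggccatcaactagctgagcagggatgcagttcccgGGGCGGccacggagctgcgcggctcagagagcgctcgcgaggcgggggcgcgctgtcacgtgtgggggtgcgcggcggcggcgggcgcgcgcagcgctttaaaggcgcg
Chrnb1: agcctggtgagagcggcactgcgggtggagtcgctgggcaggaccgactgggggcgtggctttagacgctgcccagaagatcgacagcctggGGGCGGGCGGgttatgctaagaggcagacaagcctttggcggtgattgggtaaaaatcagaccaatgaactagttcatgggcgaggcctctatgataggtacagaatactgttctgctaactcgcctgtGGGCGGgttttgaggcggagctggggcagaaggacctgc

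Chrna5, Chrna3 and Chrnb4 lie side by side on chromosome 9 and encode subunits that assemble with each other. Their strongest peak was not a promoter. It had 1.36 and 2.30, spanned an exon border 2.46 kb inside Chrna3 and held a CTCF match under a footprint in both libraries. A similar footprinted CTCF match lay -16.8 kb from the start of Chrna4 in a peak of 1.79 and 3.26. These 2 sites were chosen after their values were seen and are shown for the match, in capitals, at chr9:55024001-55024200 and chr2:181060281-181060460 of mm10, on the minus strand, which is that of both genes.
Chrna3: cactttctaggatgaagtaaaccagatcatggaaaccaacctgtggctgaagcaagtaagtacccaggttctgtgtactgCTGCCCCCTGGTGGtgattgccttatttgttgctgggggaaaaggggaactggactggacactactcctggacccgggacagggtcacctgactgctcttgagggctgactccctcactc
Chrna4: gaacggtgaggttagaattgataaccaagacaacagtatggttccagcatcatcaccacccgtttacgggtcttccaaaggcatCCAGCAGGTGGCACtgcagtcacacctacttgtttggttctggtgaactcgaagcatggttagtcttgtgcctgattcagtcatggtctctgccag

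**Figure D3:**
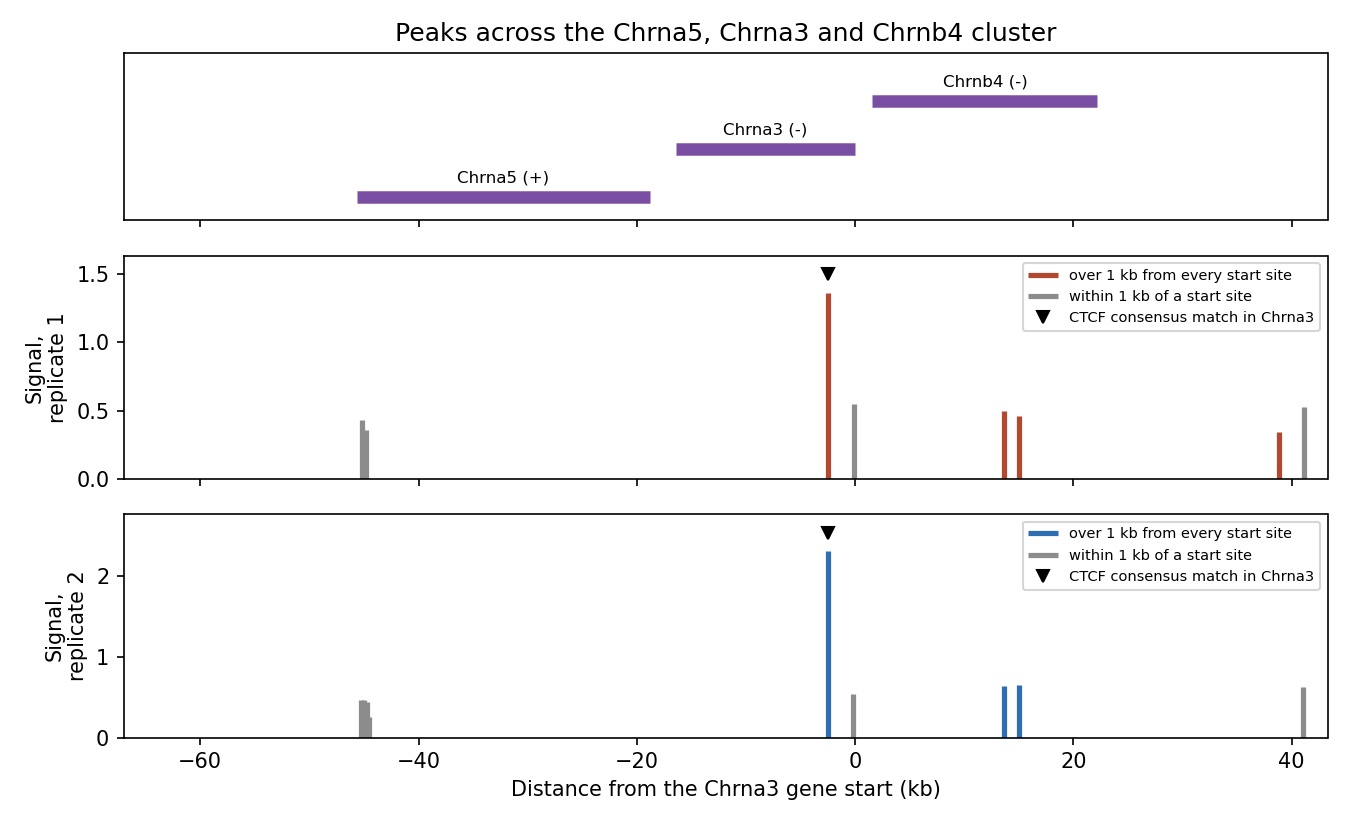
Top, the genes Chrna5, Chrna3 and Chrnb4 with their strands; below, the signal of each peak in replicate 1 and replicate 2 against distance from the Chrna3 start (kb), coloured where over 1 kb from every start site and grey otherwise, with a triangle at the CTCF match. The peak inside Chrna3 (1.36 and 2.30) is the tallest in both libraries, and no peak stands at the start of Chrnb4.

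All 4 opioid receptor promoters were open in both libraries. Oprl1, the receptor of nociceptin, had 1.40 and 2.26 and stood apart from the rest. Oprd1, the delta receptor, had 0.531 and 0.868. Oprm1, the mu receptor and target of morphine, had 0.552 and 0.507, the lowest mean of both libraries in the class. Oprk1, the receptor of dynorphin, had 0.557 and 0.586, and the order of these 3 differed between the libraries. The Oprm1 peak lay at a cluster of 7 starts 30.1 kb inside the gene (chr10:6758506-7038198), and its outer start was closed in both libraries. Among the peptides that act on these receptors, Penk had an open promoter in both libraries at 0.797 and 0.835, Pdyn was open in replicate 1 only, and Pnoc and Pomc were closed.

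The cannabinoid receptors differed from each other. Cnr1, the presynaptic receptor abundant on cortical interneuron terminals, had 1.94 and 2.18. Cnr2, known mainly from immune cells, had no promoter peak, while its locus held 4 and 2 distal peaks. All 5 listed genes of endocannabinoid synthesis and breakdown (Dagla, Daglb, Napepld, Faah and Mgll) were open in both libraries with a median of 2.93 and 3.69.

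Set by coupling, the open share in both libraries was 6 of 8 for Gs (75.0%), 15 of 19 for Gi (78.9%) and 8 of 9 for Gq (88.9%). It was 8 of 18 for ion channel subunits (44.4%), against 63.3% of all genes. Htr5b, open in both libraries, was assigned no coupling and is in none of these groups. Without the muscle subunits 36 of 50 receptors (72.0%) were open. The lower count of the channels came with a low CpG content at their starts, whose median observed/expected ratio was 0.225 against 0.487 for the G protein-coupled receptors, and the part of CpG content in this difference was not tested.

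The 14 closed promoters had almost no listed cutting near their starts. The deposited cut-rate tables list bases whose cut rate passed a false discovery rate of about 0.05, and within 500 bp of the starts of 13 of the 14 no base was listed in either library. Drd3 was the exception, with 31 bases in replicate 1 and 1 in replicate 2. Over all genes without a peak, 2.48% and 2.31% had a listed base.

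Receptors with low CpG content at the start were open less often than the rest, as were genes at large, but not in the same steps. The CpG ratio was taken at the outer gene start, whereas a promoter counted as open at any annotated start. In the low tertile of CpG ratio, as set over all genes, 10 of 24 receptors (41.7%) were open in both libraries, against 16.7% of all genes. In the middle tertile 18 of 20 (90.0%) were, against 76.6%, and in the high tertile 10 of 11 (90.9%), against 96.6%. Open receptor promoters had a lower median signal than all open promoters in each tertile and each library. In the high tertile it was 1.17 and 1.72 for receptors, against 4.41 and 4.92 for all genes. In the middle tertile it was 0.648 and 0.789, against 2.30 and 2.76, and in the low tertile 0.732 and 1.03, against 1.21 and 1.79. The median CpG ratio of the receptors was 0.405 and that of all genes 0.558. Among the open receptors of the low tertile, Adra1b, Chrna4, Chrne and Oprm1 had no peak at the outer start. Their ratio thus belongs to a closed start, and they were open at another start inside the gene.

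**Figure D4:**
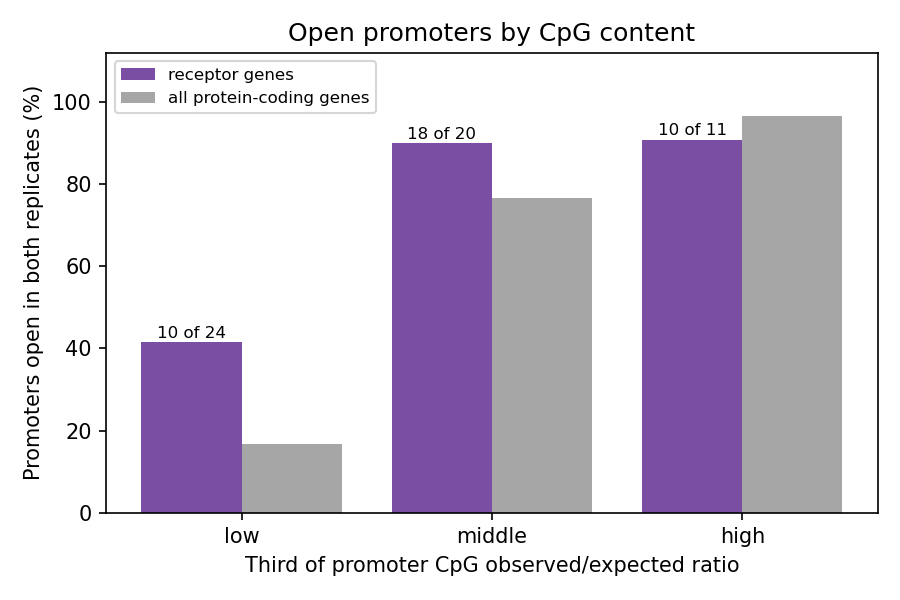
Share of promoters open in both libraries (vertical axis, %) for receptor genes (purple) and all protein-coding genes (grey) in the low, middle and high tertile of promoter CpG observed/expected ratio, with receptor counts above the bars. The receptor bars stand at 41.7%, 90.0% and 90.9%, against 16.7%, 76.6% and 96.6%. The ratio is that of the outer gene start, while a promoter is open if any start has a peak.

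Receptors also had fewer annotated start sites, with a median of 2 against 3 over all genes. Among receptors with 1 start, 10 of 17 were open in both libraries, against 32.1% of all such genes. With 2 starts 13 of 17 were, against 42.9%, and with 3 or more 15 of 21, against 81.0%. Starts over 1000 bp apart were taken as separate clusters, and 22 receptors had more than 1. Of these, 12 were open in both libraries at exactly 1 cluster and 3 (Htr1b, Adra2a and Adrb1) at more than 1, while 7 were open at none. In 4 of the 12, Adra1b, Chrna4, Chrne and Oprm1, the open cluster was not the outer one. Counting only the outer gene start left 34 receptors open, and counting only starts of coding transcripts left 37, without Chrne.

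The 2 libraries ranked the open receptor promoters alike. Over the 38 open in both, the log2 signals correlated with Pearson's r 0.945 and Spearman's rho 0.861, a description across genes that share the same 2 libraries and are not independent replicates. The median difference, replicate 1 minus replicate 2, was -0.16 on the log2 scale (SD 0.32) for receptors and -0.17 (SD 0.23) for all 13776 promoters open in both. Replicate 2 was higher for 30 and replicate 1 for 8, so the order of neighbours in the plot of promoter signal that differ by less than this spread cannot be read.

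Motif matches in receptor promoter peaks ranged from none for CRE, the NRF1 core and AP-1 to 23 of 41 in replicate 1 and 19 of 38 in replicate 2 for the GC box. Each motif was searched on both strands as exact letters, TGACGTCA for CRE, GCGCATGC for the NRF1 core, CAGCTG for the E-box and TGACTCA for AP-1, with CTCF and REST by their consensus. Only the highest peak of each open promoter was searched, and further peaks near the starts were not. None of these receptor peaks held CRE, the NRF1 core or AP-1. Over all open promoters the shares were 3.93% and 3.83%, 5.85% and 6.03%, and 2.35% and 2.11%. The E-box was in 7 of 41 and 5 of 38 (17.1% and 13.2%), against 2319 of 14496 and 2187 of 13889 open promoters over all genes. The GC box, found in 67.0% and 66.9% of all open promoters, lay under a footprint in 15 and 3 receptor promoters (36.6% and 7.89%), against 51.9% and 47.6%. Replicate 2 had fewer footprints in all, and the part of this in the lower count was not tested. Chrna7 and Chrnb1 were among those with a footprinted GC box in both libraries.

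Distal sites were present around most receptors. The locus, the gene body with 20 kb on each side, held at least 1 distal peak for 49 receptors in replicate 1, where 73.9% of all genes had one, and for 46 in replicate 2, where 68.0% did. Both libraries had one for 44 receptors (80.0%), against 65.1% of all genes. The median density was 3.29 and 3.07 distal peaks per 100 kb for receptors, against 2.38 and 1.97 for all genes. With a flank of 100 kb the order turned round, with a median density, as the mean of both libraries, of 2.71 for receptors and 2.80 for all genes. Drd1, Htr2b, Chrna6 and Oprk1 had no distal peak in either library.

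**Figure D5:**
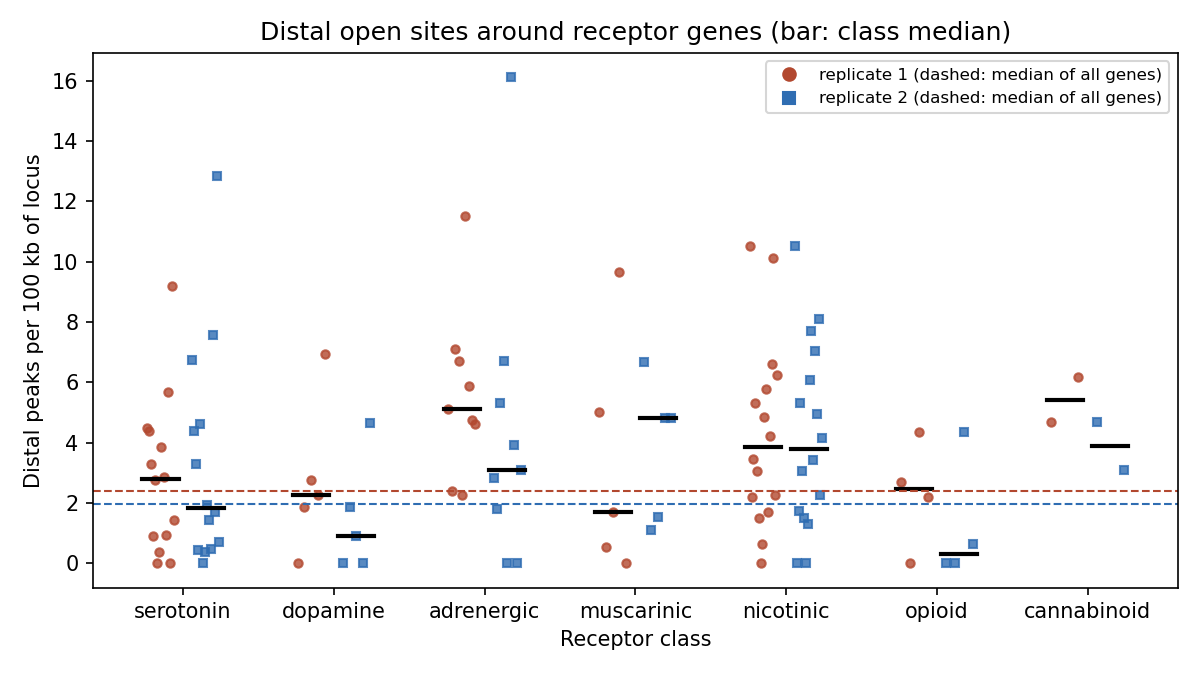
Distal peaks per 100 kb of locus (vertical axis) for each receptor gene by class, circles for replicate 1 and squares for replicate 2, with class medians as bars and the medians of all genes (2.38 and 1.97) as dashed lines. Adra2c at 11.5 and 16.1 is the highest member, and each class has members below the dashed lines except the cannabinoid receptors.

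The 8 densest loci included genes with closed promoters, weak promoters and promoters that were strong among the receptors. Adra2c, the Gi-coupled receptor of a gene of 3.44 kb, had 11.5 and 16.1 distal peaks per 100 kb, from 5 and 7 peaks. In each library 4 of these lay in its own exon, so most of them were not remote from the gene. Htr6 had 9.18 and 12.9 from 5 and 7 peaks. Chrna1, closed at its promoter, had 10.5 in both libraries from 6 peaks each, the strongest being an intronic site of 2.64 and 3.57 at chr2:73572541-73572760. The closed muscle subunit Chrnd had 10.1 and 8.09 and the closed Chrm4 9.65 and 4.83. Chrnb1 had 5.78 and 7.71, Htr5a 5.67 and 7.56, and Adra2a 6.69 in both. Of these 8 loci, 3 therefore belonged to genes without a promoter peak.

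By number of peaks Adra1a, with 9 and 5, tied with Chrm3 in replicate 1 and was below it in replicate 2. Oprm1 had 7 and 2, spread over a gene of 280 kb, which shows how far the count of weak distal peaks moved between libraries. In all, the loci held 138 distinct distal peaks in replicate 1 and 122 in replicate 2. Of these, 94 (68.1%) and 95 (77.9%) overlapped a peak of the other library, against 59.3% and 79.4% of all distal peaks. Their median signal was 0.599 and 0.767, against 0.505 and 0.733. Counted per gene, 50 of 146 lay in introns, 19 in exons, 49 upstream and 28 downstream in replicate 1, and 45, 19, 38 and 26 of 128 in replicate 2.

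In 27 receptor loci (49.1%) the strongest distal peak exceeded the promoter signal in both libraries, against 26.9% of all genes. Of these, 14 had a promoter that was not open in both libraries. Among the 38 with a promoter open in both, 13 (34.2%) had such a site, against 15.8% of all genes so open. They were Htr1a, Htr1b, Htr1f, Htr2a, Htr3a, Htr6, Adra1a, Chrm1, Chrna3, Chrna4, Chrna5, Chrne and Oprm1. The Chrna3 site counts for Chrna5 and Chrnb4 as well, because the loci overlap.

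At distal receptor sites CTCF matches were found at a higher share than at distal peaks over all. They were in 19 of 138 distal peaks (13.8%) in replicate 1 and 18 of 122 (14.8%) in replicate 2, against 6.65% and 8.00% of all distal peaks. Under a footprint were 13.0% and 12.3%, against 6.35% and 6.79%. E-boxes were in 22 and 20 (15.9% and 16.4%), against 19.6% and 19.4%. In both libraries 14 distinct distal matches were footprinted. With the Drd1 promoter, 17 receptors had a footprinted match in or around the gene in both libraries, of which 9 were nicotinic subunits, some of them neighbours that share a site. These counts in both libraries were not made over all genes or all distal peaks, so they cannot be read as high or low. Chrna9, closed at its promoter, had an intronic site of 1.69 and 2.29 that held a CTCF match and a CRE match, both footprinted in both libraries.

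Other receptor families of the synapse also had low promoter signals, and no difference between families was tested. The AMPA and kainate receptor genes were open in 9 of 9 cases, with a median of 1.68 and 1.87. The metabotropic glutamate receptors were open in 7 of 8 with 0.896 and 1.12, and the GABA-A subunits in 13 of 19 with 0.896 and 1.36. Open neuromodulator receptor promoters ranked at median percentiles of 11.3 and 9.83, against 29.1 and 25.8 for AMPA and kainate, 15.2 and 13.7 for metabotropic glutamate and 15.1 and 18.4 for GABA-A genes. The distal density of the neuromodulator receptors, as the median over loci of the mean of both libraries, was 2.89, against 2.17, 2.05 and 1.83 in these families. The loci of these families were longer: the median length with flanks was 57.9 kb for the neuromodulator receptors, against 359, 358 and 129 kb. By number the order was the other way, with 146 distal peaks over 55 neuromodulator receptor genes in replicate 1, against 101 over the 9 AMPA and kainate, 54 over the 8 metabotropic glutamate and 65 over the 19 GABA-A genes.

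The signalling genes downstream of the receptors had higher promoter signals than the receptors. Of 19 G protein subunit genes all were open in both libraries, with a median of 3.48 and 3.92. Gnas, which encodes the Gs alpha subunit, had 2.91 and 2.85, Gnao1, the main Go alpha subunit of brain, had 3.46 and 3.92, and Gnaq had 4.18 and 4.49. The 20 effector genes, which include adenylyl cyclases, phospholipases and protein kinase A subunits, were all open at a median of 2.75 and 2.85, and the 14 kinase, arrestin and RGS genes that end signalling at 3.02 and 3.38. Over the whole list of 74 partner genes, 67 (90.5%) were open in both libraries, against 63.3% of all genes. The median signal of those open was 2.74 and 3.03, below the 3.13 and 3.73 of all open promoters. Their median CpG ratio was 0.724, which lies in the high tertile, where 96.6% of all genes were open in both libraries.

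Genes that assemble or modulate nicotinic receptors were open in 5 of 7 cases. The chaperone gene Ric3 had 2.51 and 3.03, and Lynx1, which encodes a brake on cortical nicotinic signalling, had 1.16 and 1.33. The closed 2 were Musk and Rapsn, which cluster the receptor at the muscle synapse. Of the genes of acetylcholine metabolism, Ache had 1.73 and 2.22, while Chat, which makes acetylcholine, was closed and its neighbour Slc18a3 was open in replicate 1 only.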

How the data were processed

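Per the file headers and text files, each of the 2 libraries was deposited with 2 lists of peaks, 1 of footprints and a table giving the false discovery rate of the cut rate per base, all on mm10. No aligner, caller or threshold is named in them. Peak signal is the authors' deposited value, of unstated scaling, and was used for ranks and levels within a library. Members were also ordered by its mean over both libraries, and log2 differences between the libraries were taken to describe their agreement. Whether the scaling is alike in both libraries is unknown. False discovery rates, p-value type measures deposited by the authors (up to 0.0499), served only to describe promoters without a peak. The deposited score of every footprint was 0.01, so footprints were counted and not ranked. The effect of aligning F1 reads to mm10 was not tested.

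The longer peak list was used. Gene models came from GENCODE M21 and sequence from the RefSeq GRCm38.p6 genome. Open promoters, distal sites and loci are defined where they first appear. Overlaps needed 1 bp, a motif was footprinted when at least 0.5 of it was covered, and CpG ratios were taken over 500 bp on each side of the gene start. A printed sequence holds at most 30 noncoding bases of exons of its gene, and intron bases were not limited. Python 3.11.15 with pandas 2.3.3, numpy 2.4.6 and pysam 0.24.0 was used, and the overlap code was tested on simulated data (800 intervals, 0 differences from a brute-force search). With 1 group of 2 libraries no test was made. Members and lists were chosen with earlier results of these data known. Values are given by rule for the 2 highest and the lowest open promoter of each class, promoters open in 1 library, the 8 densest loci and the 5 with most distal peaks, and other genes were named after their values were seen. Alternatives were other peak lists, windows, flanks and start sites, and each library alone. That with starts of coding transcripts was chosen after the data were seen. The single values of 1 receptor gene and 1 marker gene are not reported here, though both are in the counts.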

Additional observations from a re-analysis of the deposited data

How the results depend on the processing

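The 38 receptor promoters open in both libraries stayed within 1.5 times under every alternative tried: 29 with the shorter lists (52.7%, all genes 58.8%), 38 with equal peak numbers or shared peaks (69.1%, all genes 62.8% and 63.2%), 30 and 40 with windows of 100 and 2000 bp (54.5% and 72.7%, all genes 59.6% and 66.7%), 34 with gene starts alone (61.8%, all genes 57.9%), 37 with coding starts (67.3%, all genes 62.0%), 41 open in at least 1 library (74.5%, all genes 67.2%), and 38 to 41 in each library alone. The median distal density of 2.89 (all genes 2.28) was 1.53 with the shorter lists (1.06), 2.26 with shared peaks (1.66), 0.552 with no flank (0), 2.71 with a flank of 100 kb (2.80), 2.20 with sites over 2000 bp from starts (1.81) and 3.07 to 3.29 in each library alone. The 44 loci with a distal site in both libraries (80.0%, all genes 65.1%) were 36 with the shorter lists (65.5%, all genes 50.9%). They were 42 with equal peak numbers or shared peaks (76.4%, all genes 62.6% and 63.6%). With no flank they were 24 (43.6%, all genes 33.9%) and with a flank of 100 kb 53 (96.4%, all genes 88.8%). With sites over 2000 bp from starts they were 41 (74.5%, all genes 58.5%). They were 49 in replicate 1 alone (89.1%, all genes 73.9%) and 46 in replicate 2 alone (83.6%, all genes 68.0%). Of 171 recomputed promoter signals of 19 named receptors, 16 were at 0. Leaving out a library moves the mean by less than the SD between the libraries by construction, so those values say nothing on stability. Of the 133 values from the other alternatives, 125 moved by under 1 SD. Htr1d, Drd5 and Adrb3, open in 1 library only and so with a wide SD, lost their peak with shared peaks and without replicate 1, Drd5 and Adrb3 with the shorter lists, Drd5 with 100 bp, Htr1d and Adrb3 with gene starts alone and Htr1d with coding starts. With a window of 100 bp, Adra1b and Chrnb1 had 0, Adra2b 0.352 and Chrm1 0.968, with 2000 bp Chrm1 had 2.84 and Adrb3 0.778, and with gene starts alone Adra1b and Oprm1 had 0. Narrower windows and single starts leave out peaks by construction, and the cause of the other moves was not tested. No paired analysis was possible because there is 1 group of 2 libraries. Depth is unknown, so a promoter without a peak is one where none was called.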
